A study of Mus musculus with 14 samples.

Results

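The amyloid precursor protein gene App, its 2 paralogs Aplp1 and Aplp2, the beta-secretase genes Bace1 and Bace2, and 4 genes of gamma-secretase subunits (Psen2, Ncstn, Aph1a and Psenen) were followed in RNA-seq of embryonic mouse hippocampus. These 9 genes were taken by name from 19053 gene symbols that could be assigned to loci of the deposited table and not by any threshold on their values. All 9 had a mean of at least 10 normalised fragments, the minimum set for the test, in both comparisons.

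Hippocampi came from embryos of E16 to E18 of 2 mouse models of Down syndrome and of their wild-type littermates. The 189N3 line carries a bacterial artificial chromosome with the entire mouse Dyrk1a gene as an extra copy, and the Dp(16)1Yey/+ line carries on 1 chromosome 16 a duplication of the segment from Lipi to Zfp295, so that genes of this segment are present in 3 copies in place of 2 in every cell. There were 3 libraries of 189N3, 3 of its wild type, 4 of Dp(16)1Yey and 4 of its wild type, with replicates numbered from 0, and neither wild type carries an extra copy. Embryos are given as 3 or 4 per genotype, but it is not stated in so many words that each library is 1 embryo, so the p-values below measure the spread between these libraries. App and Bace2 lie in the triplicated segment and the other 7 genes do not, and Dyrk1a is also in that segment.

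App is a membrane protein that is cut in either of 2 ways. Alpha-secretases of the ADAM family cut within the amyloid beta sequence, whereas a cut by the beta-secretase Bace1 followed by the gamma-secretase complex within the membrane releases amyloid beta, the peptide of the plaques of Alzheimer's disease. Aplp1 and Aplp2 are processed by the same enzymes but lack the amyloid beta sequence. APP lies on human chromosome 21, and its extra copy is regarded as a main contributor to the early Alzheimer pathology of people with Down syndrome.

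The libraries held between 20809135 and 29098454 fragments. Values are fragments divided by 1 size factor per library (normalised fragments), in which 1 fragment is worth 0.816 to 1.21 units. Dyrk1a, the check of the labels, had 4248, 3938 and 5877 normalised fragments in the 3 libraries of 189N3 against 2448, 2977 and 2126 in its wild type, without overlap. In the Dp(16)1Yey libraries the median log2 difference of the 84 other tested genes of the segment from the littermate mean was 0.69, 0.11, 0.56 and 0.40 in replicates 0 to 3, so that the extra dosage was barely seen in the library labelled Dp(16)1Yey replicate 1. Several results, among them those of App and Bace2, are given a second time with that library left out. It was singled out by these same values, so higher values of the segment without it are no separate evidence. Neuronal markers were abundant in every library (summed level of 7 of 7 markers between 94285 and 190050 normalised fragments). The 4 wild-type libraries of the Dp(16)1Yey line formed 2 pairs, replicates 0 and 1 and replicates 2 and 3, whose squared differences were 1.40 and 1.53 times the counting noise, against 10.7 to 11.5 times between the pairs. They differed by more than counting noise and were kept as 4, but if each pair stems from 1 embryo the p-values below are too small.

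Per kilobase of transcript, Aplp1 and App led the group in wild-type hippocampus. Over the 7 wild-type libraries the mean level was 1898 ± 552 (SD) normalised fragments per kb for Aplp1, 1298 ± 329 for App and 770 ± 115 for Aplp2. The ranges of neighbours in this order overlapped for all 3 substrates, and that of Aplp2 also overlapped the range of Psenen (752 ± 75.9 per kb), the small subunit that completes gamma-secretase. The other enzymes were lower. Ncstn, the substrate-binding subunit nicastrin, stood at 376 ± 91.5 per kb, Bace1 at 235 ± 37.6 and Aph1a, a scaffold of the complex, at 183 ± 45.9, with overlapping ranges between these 3. Psen2, one of the catalytic subunits, was far lower at 40.7 ± 10.6 per kb, and Bace2 lower again at 2.51 ± 0.739, and neither range touched that of the gene above it. Bace2 had only 10.3 to 27.7 normalised fragments in these libraries. The level of Bace1 is uncertain, because 53.9% to 69.1% of its fragments over the 14 libraries were assigned to a form of Cufflinks class code e, a single exon that may be unspliced transcript. Without that form, an alternative added after the data were seen, Bace1 stood at 90.4 ± 27.2 per kb, below the mean of Aph1a.

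**Figure D1:**
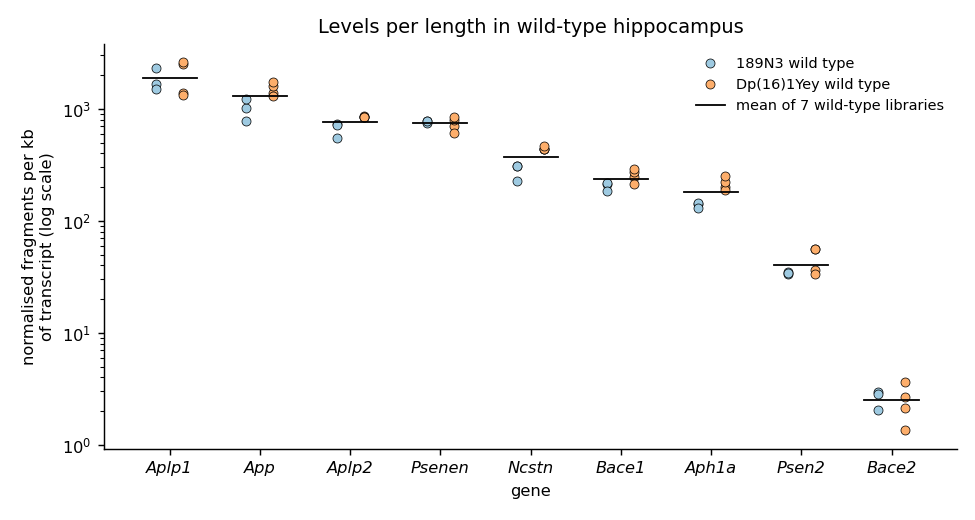
Normalised fragments per kilobase of the principal transcript (vertical axis, log scale) for the 9 genes in the 7 wild-type libraries, with a point for each library and a line at the mean. Levels run from 1898 per kb for Aplp1 to 2.51 per kb for Bace2, and the ranges leave a gap below Psenen, below Aph1a and below Psen2.

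The wild types of the 2 lines did not have the same levels. App, Aplp2, Ncstn and Aph1a were higher in every wild-type library of the Dp(16)1Yey line than in every one of the 189N3 line, and the other 5 genes overlapped. For App the values ran from 2480 to 3925 in the wild type of 189N3 and from 4155 to 5557 in that of Dp(16)1Yey, a difference of 0.59 on the log2 scale. That is as large as the 0.58 that 3 copies over 2 would give. Of 36045 loci, 14.7% were likewise higher without overlap, and the exact permutation test cannot go below 0.0571 for 3 against 4 libraries. The line and any separate handling of the 2 sets of embryos cannot be told apart here, and the comparisons below are within a line.

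None of the 9 genes passed the test in 189N3, where App is present in its usual 2 copies. Dyrk1a, which has an extra copy there, did not pass adjustment either (log2 fold change 0.89, SE 0.24, unadjusted p = 0.00219 in limma). App (chr16:84949685-85173766, minus strand, GRCm38) had 3353, 4469 and 5624 normalised fragments in the libraries of 189N3 and 3255, 3925 and 2480 in the wild type. The groups overlapped, since the lowest 189N3 library lay below the highest wild-type library, although all 3 exceeded the wild-type mean. The log2 fold change was 0.47 (SE 0.26, 95% confidence interval −0.08 to 1.02), with an adjusted p of 1.00 in limma and an exact two-sided permutation p of 0.20. The smallest p that 3 against 3 libraries allow is 0.10.

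Bace1 (chr9:45838580-45864399, plus strand), the enzyme that makes the first cut towards amyloid beta, was the only member whose groups did not overlap in 189N3. It had 1404, 1368 and 1939 normalised fragments in 189N3 and 1306, 1329 and 1115 in the wild type, a log2 difference of 0.31 (SE 0.23, adjusted p = 1.00 in limma). Its permutation p was 0.10, the smallest possible. Without the form of class code e the groups overlapped, with 457, 466 and 825 against 443, 496 and 390 normalised fragments (log2 difference 0.34, exact permutation p = 0.40). Of all 35899 loci tested, 4.98% did not overlap between these groups and 1.99% did so with 189N3 higher, which for 9 genes is less than 1 gene.

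The remaining members of 189N3 overlapped with their wild type. The paralogs had 4849, 2839 and 6043 (Aplp1) against 3874, 5413 and 3492, and 2005, 3018 and 3466 (Aplp2) against 2653, 2622 and 1981 normalised fragments. Their log2 fold changes were 0.06 (SE 0.29) and 0.20 (SE 0.25). For the gamma-secretase subunits the log2 fold changes were 0.25 for Psen2, 0.19 for Ncstn, 0.29 for Aph1a and 0.02 for Psenen. Bace2 was the one member below its wild type, with 11.8, 13.9 and 22.8 against 22.5, 21.7 and 15.7 normalised fragments and a log2 fold change of −0.32 (SE 0.37). In all, 8 of 9 genes had a value above 0 (median 0.20), against 43.8% of all loci above 0 and 56.2% below (median −0.04). Among the 14829 named loci alone the median was 0.04, on the same side of 0 as the members. An unadjusted p under 0.05 in limma was found for 0 of 9 genes, against 1.87% of all loci. Of the 35899 loci tested, 0.0% passed the adjusted threshold, by limma and by edgeR alike, and DESeq2 called 15.

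Part of this depended on single libraries. Replicate 2 of 189N3 had the highest value of its group for all 9 genes. Without it the log2 fold change of App was 0.29 and that of Bace1 0.15, and 6 of 9 genes were above 0 with a median of 0.04. Leaving out wild-type replicate 2 instead put App at 0.29, Aplp2 at 0.06, Ncstn at 0.04 and Aplp1 at −0.07. Summed neuronal markers (7 of 7 found) were also highest in 189N3 replicate 2, 190050 normalised fragments against 131625 to 138921 in the other 2 and 121311 to 143063 in the wild type. Markers of endothelium and pericytes (6 of 6; 3121 against 1687 to 2418 in the other 5 libraries), oligodendrocyte precursors (3 of 3; 1775 against 758 to 1160) and microglia (5 of 6; 1110 against 735 to 1017) were highest there as well. The part of these markers in the result was not tested, and in bulk tissue fewer cells of a type and less RNA per cell cannot be told apart. Summed erythroid markers (5 of 6 found, none at 0) separated the groups, with 13827 to 22061 normalised fragments in 189N3 and 33639 to 54137 in its wild type, and their part was not tested either.

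**Figure D2:**
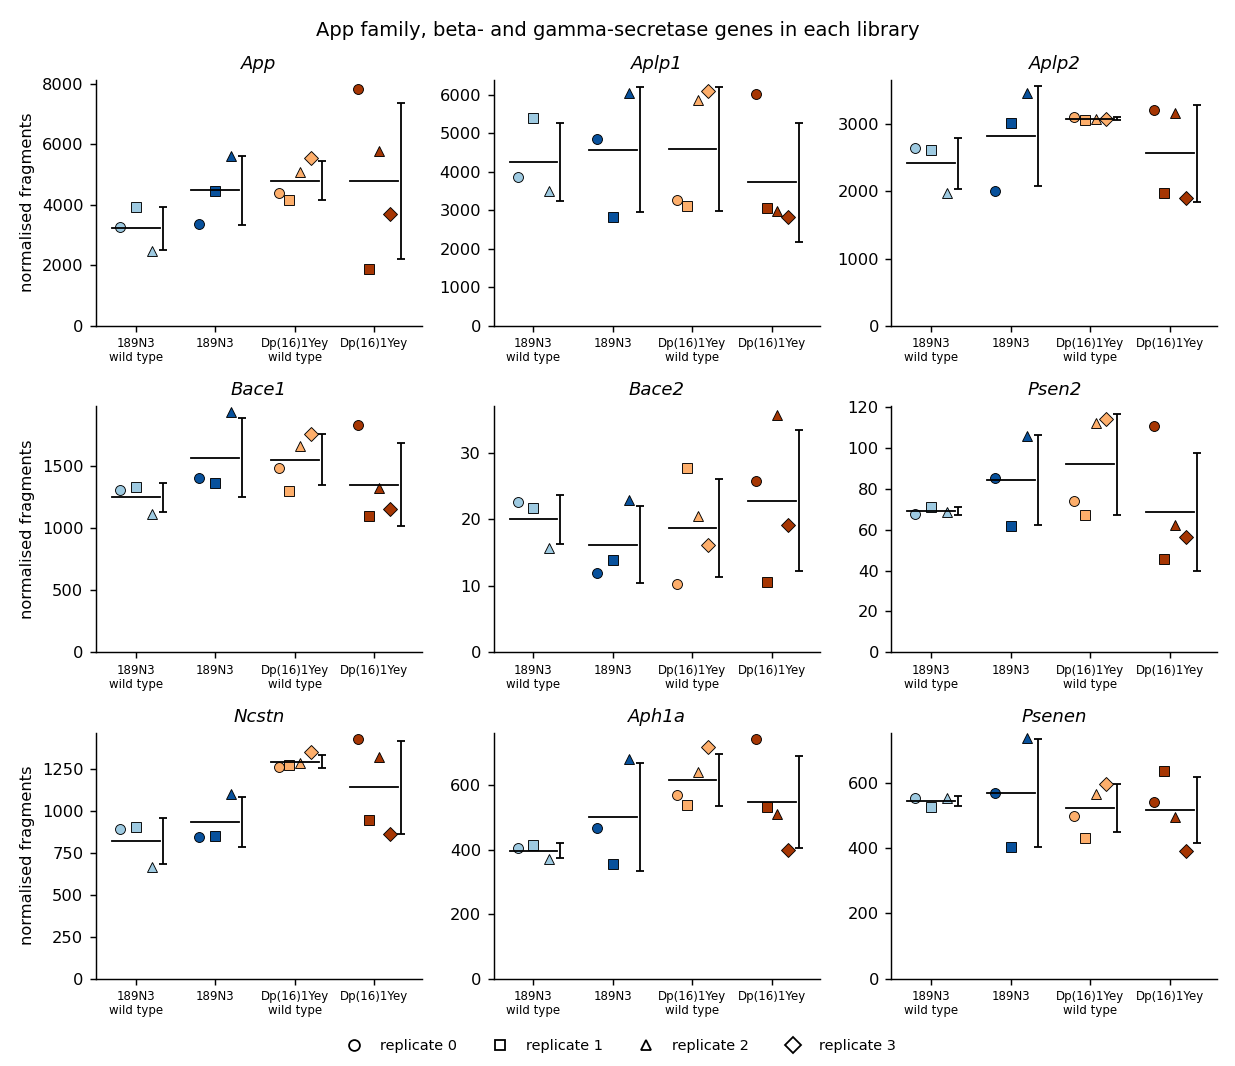
Normalised fragments (vertical axes, starting at 0) of each of the 9 genes in the 14 libraries, by group (horizontal axes), with a symbol for each replicate, a line at the group mean and a bar of 1 SD beside it. App ranges from 1864 to 7841 in the 4 Dp(16)1Yey libraries, around wild-type libraries between 4155 and 5557.

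In Dp(16)1Yey/+ hippocampus App, although present in 3 copies, was not higher on average than in wild-type littermates. Its levels in the 4 libraries were 7841, 1864, 5778 and 3689 normalised fragments in replicates 0 to 3, and 4391, 4155, 5094 and 5557 in the wild type. The Dp(16)1Yey values lay on both sides of the wild type, with replicates 0 and 2 above and replicates 1 and 3 below every wild-type library. Between the highest and the lowest Dp(16)1Yey library there was a 4.21-fold range, against 1.34-fold in the wild type, and the library labelled Dp(16)1Yey replicate 1 had the lowest App of all 14 libraries.

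The log2 fold change of App was −0.18 (SE 0.36), a ratio of 0.881 with a 95% confidence interval of 0.511 to 1.52. Its adjusted p was 0.933 in limma and its exact two-sided permutation p 0.771, where 0.0286 is the smallest that 4 against 4 libraries allow. The interval holds both no change and the ratio that 3 copies over 2 would give, so that at this spread neither could be told from the other. When the library labelled Dp(16)1Yey replicate 1 was left out, the value was 0.21 (SE 0.24, adjusted p = 1.00 in limma), on the other side of 0.

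The nearest tested named gene on each side of App was higher in every Dp(16)1Yey library. Gabpa, a subunit of an ETS-type transcription factor whose gene ends 85.9 kb before App, had 3887, 3127, 4362 and 3752 normalised fragments in Dp(16)1Yey and 2752, 2753, 2215 and 2192 in the wild type. All 4 libraries were above all littermates, with a log2 fold change of 0.61 (SE 0.16, unadjusted p = 0.00282, adjusted p = 0.909 in limma) and a permutation p of 0.0286. Cyyr1, which lies 248 kb after App by coordinate, had 86.0, 52.9, 59.2 and 57.4 against 33.0, 50.5, 48.6 and 48.5 normalised fragments, again without overlap (log2 fold change 0.49, SE 0.23). Atp5j and Mrpl39, genes of mitochondrial proteins near Gabpa that were picked after their values were seen, were higher in every Dp(16)1Yey library as well, at 0.61 and 0.53. In the library labelled Dp(16)1Yey replicate 1 Gabpa was 0.34, Cyyr1 0.24, Atp5j 0.58 and Mrpl39 0.54 above the littermate mean on the log2 scale, whereas App was at −1.35. Other genes of the segment were below the littermate mean in that library too, Dyrk1a at −0.39, Dscam at −0.62 and Bace2 at −0.68. Over all 4 libraries Dyrk1a overlapped with its wild type, with 4781, 2124, 3600 and 3044 normalised fragments against 2488, 2397, 3171 and 3175 (log2 fold change 0.22, SE 0.23). With that library left out, the log2 fold changes were 0.70 for Gabpa, 0.57 for Cyyr1, 0.43 for Dyrk1a and 0.47 for Dscam.

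Of the 84 other genes of the segment, 74 were higher and 10 lower in Dp(16)1Yey/+ (median log2 fold change 0.43), and 28 were higher in all 4 libraries than in every wild-type library, against 1.72% of all 36024 loci. Some lay near 0, among them Adamts1 at 0.15 (SE 0.42), Adamts5 at 0.03 (SE 0.25) and Ncam2 at −0.09 (SE 0.26). App ranked 8th from the lowest of the 86 tested genes of the segment when App and Bace2 were included. With the library labelled Dp(16)1Yey replicate 1 left out, 77 of the 84 other genes were higher (median 0.55). That library was picked for its low values in these genes, so a rise was fixed in advance. By library, App was at 0.72, −1.35, 0.28 and −0.37 against the littermate mean, next to segment medians of 0.69, 0.11, 0.56 and 0.40. App matched the segment in replicate 0 and lay below it in the other 3 libraries.

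**Figure D3:**
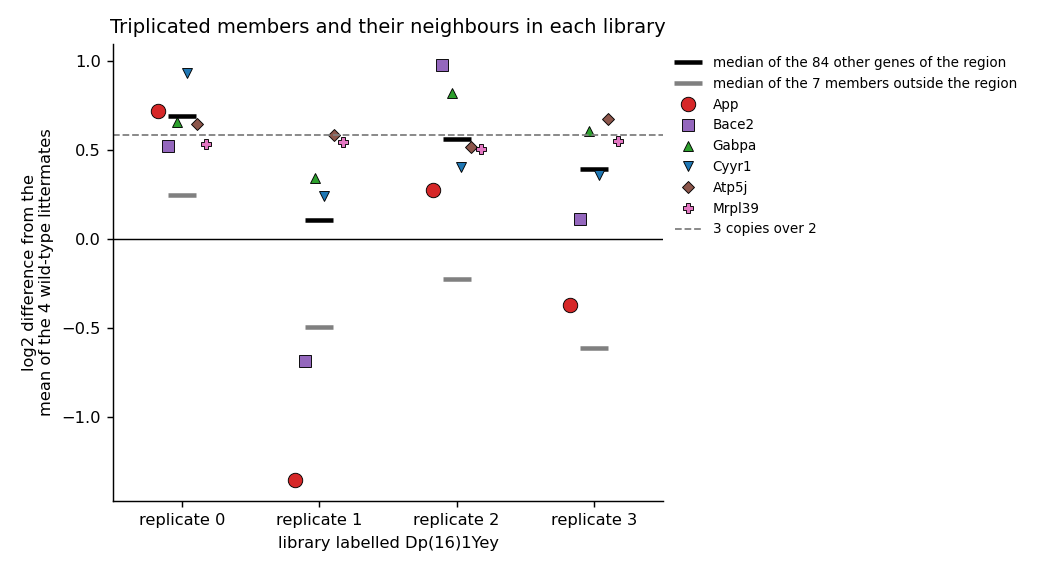
Log2 difference from the mean of the 4 wild-type littermates (vertical axis) in each library labelled Dp(16)1Yey (horizontal axis) for App, Bace2, 4 other genes of the segment, the median of its 84 other tested genes (black line) and the median of the 7 members outside it (grey line), with the dashed line at the 0.58 of 3 copies over 2. App lies near the segment median in replicate 0 and at −1.35 in replicate 1. In replicate 1 the segment median is 0.11 and Bace2 is at −0.68. Atp5j and Mrpl39, picked after their values were seen, are at 0.58 and 0.54 there.

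Markers of other cells stood out in the library labelled Dp(16)1Yey replicate 1, where App was lowest. Summed erythroid markers (the same 5) reached 48051 normalised fragments in replicate 1, 6091 to 22321 in the other 3 Dp(16)1Yey libraries and 4543 to 17031 in the wild type. Progenitor markers (7 of 7 found) summed to 58621 there, 26792 to 47506 in the other 3 and 28044 to 39890 in the wild type. Meninges and connective tissue markers (4 of 4) summed to 1898 there, 371 to 1053 in the other 3 and 396 to 985 in the wild type, and skin markers (4 of 4) to 337, against 153 to 227 in the rest of the line. Hippocampus and forebrain markers (5 of 5) were lowest in this library, at 5703 against 6025 to 12103 in the rest of the line. Neuronal markers summed to 100036, above the 96752 of replicate 3 and the 94285 of the lowest wild-type library, but their mean log2 level of 12.3 was the lowest of all 14 libraries. The part of these markers in the App values was not tested.

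Bace2 (chr16:97356742-97442936, plus strand), the second member with 3 copies, had few fragments, and its groups overlapped. It had 25.7, 10.6, 35.7 and 19.1 normalised fragments in Dp(16)1Yey and 10.3, 27.7, 20.5 and 16.2 in the wild type, where 1 unit is about 1 fragment. The highest value was in Dp(16)1Yey replicate 2. Its log2 fold change was 0.23 (SE 0.40, 95% confidence interval −0.65 to 1.11, adjusted p = 0.925 in limma, permutation p = 0.629), and 0.54 (SE 0.36) with the library labelled Dp(16)1Yey replicate 1 left out. Leaving out Dp(16)1Yey replicate 2, or wild-type replicate 0, put it at −0.02 or −0.01. The nearest tested neighbours differed from each other. Dscam, a cell adhesion gene that lies 186 kb before Bace2 by coordinate, was at 0.20 (SE 0.32). Mx1, an interferon-induced gene that lies 4.10 kb after Bace2 by coordinate, had 11.9, 0, 2.04 and 7.04 normalised fragments against 13.4 to 17.2 in the wild type, lower in all 4 libraries (permutation p = 0.0286, adjusted p = 0.909 in limma).

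The 7 members outside the segment all had values below 0 in Dp(16)1Yey/+, and none passed the test. The largest was that of Psen2 (chr1:180227004-180263438, minus strand), at −0.45 (SE 0.29, adjusted p = 0.909 in limma). It had 111, 45.8, 62.2 and 56.4 normalised fragments in Dp(16)1Yey and 74.2, 67.3, 112 and 114 in the wild type, with replicate 0 close to the upper wild-type pair and the other 3 below the whole wild type. Aplp1 (chr7:30434982-30445535, minus strand) was at −0.31 (SE 0.30), with 6023, 3057, 2984 and 2834 normalised fragments against 3276, 3120, 5861 and 6095.

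Both genes thus split the wild type into its pairs as the neuronal markers did, which summed to 94285 and 94335 in wild-type replicates 0 and 1, 130067 and 131167 in replicates 2 and 3, 143550 in Dp(16)1Yey replicate 0 and 96752 to 102519 in the other 3. Their part in these values was not tested. Aplp2 (chr9:31149557-31211815, minus strand) differed from them in its even wild type, 3062 to 3113 normalised fragments in all 4 libraries. In Dp(16)1Yey it had 3211 and 3174 in replicates 0 and 2 and 1979 and 1908 in replicates 1 and 3, a fold change of −0.31 on the log2 scale (SE 0.20).

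Ncstn split the Dp(16)1Yey libraries as Aplp2 did. Ncstn (chr1:172066013-172082795, minus strand) had 1426, 945, 1318 and 861 normalised fragments in Dp(16)1Yey against 1261 to 1350 in the wild type, so that replicates 0 and 2 lay within or above the wild type and replicates 1 and 3 below all of it (log2 fold change −0.22, SE 0.18). Bace1 had 1834, 1095, 1323 and 1157 against 1490, 1297, 1666 and 1762 (−0.22, SE 0.19), and was at −0.41 without the form of class code e (exact permutation p = 0.20). Aph1a (chr3:95893969-95898288, plus strand) was at −0.20 (SE 0.20), with replicate 3 lowest at 401 and replicate 0 highest at 743 normalised fragments. Psenen (chr7:30561863-30563627, minus strand) was nearest to no change at −0.03 (SE 0.19, ratio 0.980 with an interval of 0.737 to 1.30), and in it alone of the 9 genes the library labelled replicate 1 was the highest of its group, at 637 normalised fragments.

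Over the 9 genes, 8 were below 0 in Dp(16)1Yey/+ (median −0.22), against 45.1% of all loci below 0 and 54.9% above (median 0.03). Among the 14714 named loci alone the median was −0.05, on the same side of 0 as the members. With an unadjusted p under 0.05 in limma there were 0 of 9 genes, against 3.53% of all loci, and 0.0% of 36024 loci passed the adjusted threshold, by limma and by edgeR alike, and DESeq2 called 8. None of the 9 was free of overlap between the groups, against 2.45% of all loci. These counts depended on 1 library. When Dp(16)1Yey replicate 0, the highest for 7 of 9 genes, was left out, Psen2 was at −0.71, Aplp1 at −0.56, Aplp2 at −0.43 and Bace1 at −0.38. These 4 then had an unadjusted p under 0.05 but did not pass adjustment (adjusted p from 0.374 to 0.392 in limma). Calls rose over the whole table in that fit, where 4567 of 36100 loci had an unadjusted p under 0.05. With the library labelled replicate 1 left out instead, no member had an unadjusted p under 0.05, against 721 of 35999 loci, and 7 of 9 were below 0.

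**Figure D4:**
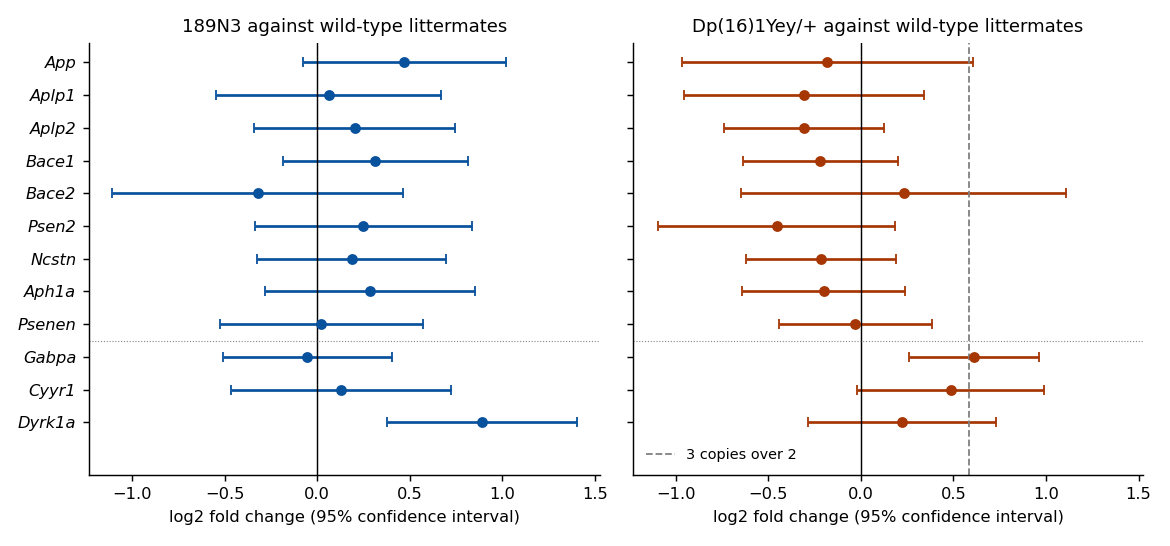
Log2 fold change with its 95% confidence interval from limma (horizontal axes) for the 9 members, and for Gabpa, Cyyr1 and Dyrk1a below the dotted line, in 189N3 (left, 3 against 3 libraries) and Dp(16)1Yey/+ (right, 4 against 4). Every member's interval holds 0 in both models, while those of Dyrk1a in 189N3 and Gabpa in Dp(16)1Yey/+ do not.

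In 189N3 8 of 9 members were above 0 and in Dp(16)1Yey/+ 8 of 9 were below it, but the difference between the models did not pass its test for any of them. As the effect in Dp(16)1Yey/+ minus that in 189N3, it was −0.65 (SE 0.50) for App, −0.70 (SE 0.41) for Psen2, −0.53 (SE 0.28) for Bace1 and 0.56 (SE 0.56) for Bace2, with adjusted p from 0.922 to 0.976 over the 9 genes in limma. In limma 0.0% of 36045 loci passed this test, and 2.66% had an unadjusted p under 0.05.

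App was also set against the other members within each library, a measure chosen after the values were seen. On the log2 scale, App less the mean of the 7 members outside the segment was 2.80, 1.37, 2.80 and 2.51 in the Dp(16)1Yey libraries and 2.32, 2.34, 2.25 and 2.31 in the wild type. The wild-type libraries were nearly equal on this scale, and 3 of the 4 Dp(16)1Yey libraries lay above all of them, with the library labelled replicate 1 far below. Over all 4 the difference was 0.07 (exact permutation p = 0.886), and without replicate 1 it was 0.40 (p = 0.0571, the smallest possible for 3 against 4, 0.171 adjusted over the 6 comparisons made with these measures). Of that 0.40, App itself made up 0.21, and the mean of the 7 other members was at −0.19. With Aplp2 alone as the reference the difference was 0.12 (exact permutation p = 0.714) and 0.40 (p = 0.0571) in turn. In 189N3, with its usual 2 copies of App, the first measure was 2.02, 2.65 and 2.31 against 2.05, 2.24 and 1.85, a difference of 0.28 (exact permutation p = 0.30).

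**Figure D5:**
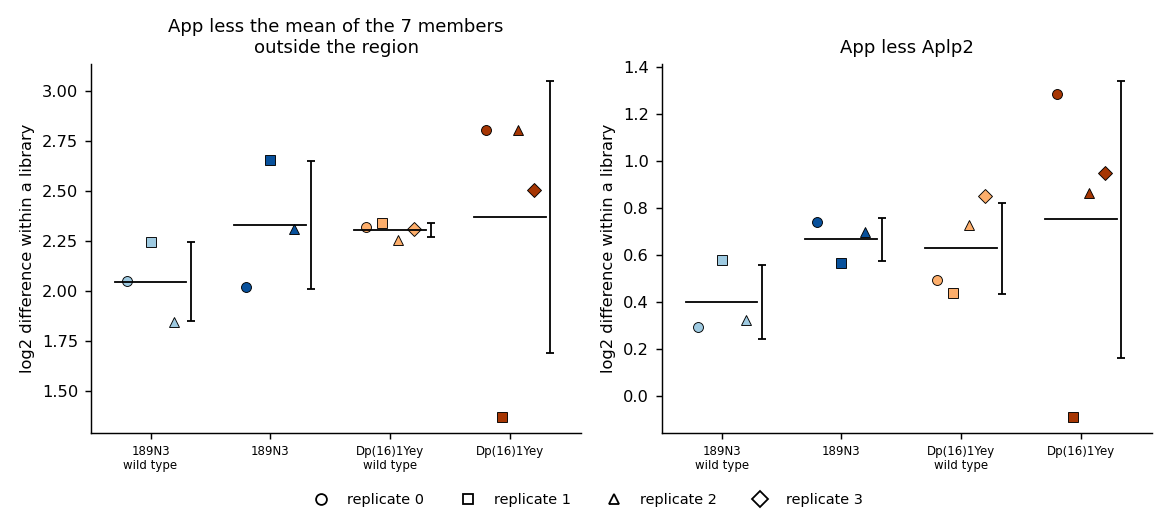
Log2 level of App less the mean log2 level of the 7 members outside the segment (left) and less that of Aplp2 (right) in each of the 14 libraries (vertical axes), by group (horizontal axes), with a line at the group mean and a bar of 1 SD. Of the Dp(16)1Yey libraries, 3 lie above all wild-type littermates and the library labelled replicate 1 lies below all of them in both panels.

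Members varied together from library to library to different degrees. Over the 14 libraries, with each group's mean taken off, the Pearson correlation of log2 levels with App was 0.82 for Bace1 (Spearman 0.84), 0.81 for Aplp2 (0.87), 0.81 for Ncstn (0.90) and 0.72 for Psen2 (0.60). It was 0.70 for Bace2 (0.71), 0.54 for Aplp1 (0.56), 0.48 for Aph1a (0.59) and only −0.02 for Psenen. Bace1 was closest to Psen2 (0.91) and Aplp1 also to Psen2 (0.91), while Ncstn was closest to Aplp2 (0.89). The genes most like App among 11240 named genes with a mean of at least 100 were no members: Faah (0.99), a hydrolase of endocannabinoids, Kcna2 (0.99), a potassium channel subunit, March1 (0.99), a ubiquitin ligase, Csmd1 (0.98), a large membrane protein, and Tanc2 (0.98), a synaptic scaffold. By Pearson correlation Bace1, Aplp2 and Ncstn ranked 590th, 621st and 669th among these genes, and Aplp1, Aph1a and Psenen 3362nd, 3954th and 7711th. These values share libraries, depth and the few libraries that stand apart, and are given as a description.

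App fragments were assigned mainly to 1 isoform. Of the 6 App isoforms in the table, uc007zto.2 held between 78.4% and 94.0% of the fragments (median 90.3%), uc012ahn.1 a median of 6.66% and uc007ztm.2 a median of 2.41%. Reference sequences to tell forms with and without the Kunitz inhibitor exon were not used here, so that the identifiers stand for themselves. The share of uc007zto.2 was 86.0% ± 5.87 (SD, n = 4) in Dp(16)1Yey and 92.0% ± 1.51 in the wild type (exact two-sided permutation p = 0.114), and 91.4% ± 2.26 (n = 3) in 189N3 against 87.1% ± 4.35 (p = 0.30).

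At the level of isoforms none of those of the members passed the adjusted threshold in limma (21 tested in 189N3 and 19 in Dp(16)1Yey/+), against 0.0366% and 0.0214% of all isoforms. With an unadjusted p under 0.05 there were 1 in 189N3, against 2.56% of all isoforms, and 2 in Dp(16)1Yey/+, against 3.48%. The first was a minor form assigned to Bace1, with 15.3 to 36.4 normalised fragments in 189N3 and at most 0.00937 in its wild type, but up to 36.8 in the wild type of the Dp(16)1Yey line. In Dp(16)1Yey/+ the App isoform uc007ztp.2 had 46.4 to 206 normalised fragments, against 0.000425 to 215 in the wild type, and a minor form of Psenen had a mean of 23.3 against 11.3. Such values are estimated shares of fragments that match several isoforms. Leaving out 1 library moved the count of isoforms between 1 and 2 in 189N3 and between 0 and 4 in Dp(16)1Yey/+.

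Other genes of App biology showed few differences. A list of 38 genes, mainly of alpha-secretases, trafficking receptors, adaptors and clearance enzymes, was followed. It also held Aph1b and Aph1c, paralogs of the gamma-secretase member Aph1a. Of the list, Mep1b was not found in the gene map and the other 37 were tested. Medians over named loci alone were 0.04 in 189N3 and −0.05 in Dp(16)1Yey/+. In 189N3, 31 were above 0 and 6 below (median 0.13), against 43.8% of all loci above 0, with 0 of 37 at an unadjusted p under 0.05, against 1.87% of all loci (1.05% lower). In Dp(16)1Yey/+, 9 were above 0 and 28 below (median −0.13), against 45.1% of all loci below 0, and 2 had an unadjusted p under 0.05 in limma, both lower, against 1.82% of all loci.

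These 2 were sorting receptors of the Vps10 family, to which the App receptor SorLA also belongs. Sorcs3 had 189, 50.5, 103 and 129 normalised fragments in Dp(16)1Yey and 166, 141, 404 and 438 in the wild type (log2 fold change −1.25, SE 0.45, unadjusted p = 0.0173). Sorcs2 had 325, 162, 413 and 180 against 450, 427, 389 and 428 (−0.75, SE 0.28, unadjusted p = 0.0197). Each overlapped with its wild type in 1 library or more, the adjusted p was 0.909 for both in limma, and with the library labelled Dp(16)1Yey replicate 1 left out they were at −0.89 and −0.54, no longer under 0.05. None of the 3 alpha-secretase genes passed the test. Adam10, the main one of neurons, was at 0.07 in 189N3 and −0.03 in Dp(16)1Yey/+ on the log2 scale, Adam17 at −0.11 and 0.04, and Adam9 at 0.25 and −0.10, with SE from 0.16 to 0.24.

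Several members share genomic positions with other genes, and whether strand was used in counting is not stated although the libraries were stranded. Exons of App overlap the antisense gene Gm49227, those of Bace1 overlap Rnf214 and Gm16536, those of Ncstn overlap Copa, those of Aph1a overlap Car14 and those of Psenen overlap U2af1l4, so that fragments there may be assigned to either gene. Gm10791, an antisense gene inside App, was at 0.42 in Dp(16)1Yey/+ with 2301, 1651, 3336 and 2897 normalised fragments against 2376, 2450, 1386 and 1410 in the wild type. Its order of libraries was not that of App: the wild-type pair that was lower in App was the higher here.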

How the data were processed

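RNA was from embryonic hippocampus (14 libraries of 4 groups, taken from the sample labels). Per the labels and the paper's methods, libraries were stranded total RNA, read as paired ends of 100 bp, and the submitters' processing notes list Bowtie, TopHat, Cufflinks and mm10. In the gene table the authors deposited a scaled signal: each library's fragments at a locus over that library's own size factor. Whole fragments were recovered from 100% of nonzero values (within 0.02 of a fragment plus 1e-05 of the value). Loci without a name held 18.0% to 37.8% of fragments. The lowest share was in 189N3 replicate 2, against 26.2% to 33.3% in the other libraries of that line. In Dp(16)1Yey replicates 0 to 3 it was 24.3%, 29.5%, 31.1% and 37.8%. In the wild type of that line it was 32.8%, 33.6%, 25.3% and 25.0%. The part of this share in the levels of the members was not tested. The signal values of the deposited isoform table are estimated shares on the same scale, and their depth is that of the gene table.

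The map from transcripts to symbols is shifted against the tables over 6 stretches, by up to 11 transcripts. Each locus was matched to the map locus whose isoforms sum to it in all 14 libraries, giving 50639 matched and 19107 named loci of 59796. A symbol held by several loci was represented by the most abundant. Coordinates and transcript lengths (the principal transcript) are from GENCODE vM21 (GRCm38, the assembly of mm10).

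The log2(value + 1) of loci averaging 10 or more was fitted by limma (version 3.58.1, under R 4.3.3), the prior variance following the mean, and p-values were adjusted over all these loci after Benjamini and Hochberg, at 0.05. Adjusted p-values and intervals are limma's. Single genes were tested by exact two-sided permutation (SciPy 1.17.1), and these p-values are not adjusted over genes unless stated. The difference between models was the interaction in 1 fit. The fit was tested on simulated data. The design foresaw a share of App isoforms with the Kunitz exon, which the identifiers did not allow, so the share of the most abundant isoform was tested. Alternatives were other pseudocounts (0.1, 10), filters, scalings, the replicate block, libraries left out, and edgeR 4.0.16 and DESeq2 1.42.0 on fragments recovered from the values.

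The named genes are the members, genes of the list at an unadjusted p under 0.05, Adam9, Adam10 and Adam17, the nearest tested named genes on each side of App and Bace2, the 5 most like App, and Dyrk1a. Atp5j, Mrpl39 and Gm10791 were chosen after their values were seen. The members and lists were chosen with earlier results of these data known. Fragment counts limit Bace2 and Mx1 most, and each count covers counting error only.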

Additional observations from a re-analysis of the deposited data

Results flagged for a closer look

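Aplp1 is listed because its highest Dp(16)1Yey library, replicate 0 at 6023 normalised fragments, stood apart from the other 3, which lay between 2834 and 3057. It was 1 of 18 groups of 4 libraries examined in this way, and chance gives such a gap in about 1 group in 20. In the wild type of this line, replicates 2 and 3 had 5861 and 6095 normalised fragments.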

How the results depend on the processing

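No locus passed the adjusted threshold in limma in either model. In 189N3, 4 passed with median-ratio size factors, 15 with DESeq2 and 0 to 28 with 1 library left out (28 without wild-type replicate 1, 2 without wild-type replicate 0). In Dp(16)1Yey/+ it was 8 with DESeq2 and 0 to 3 with 1 left out (3 without Dp(16)1Yey replicate 1), and for the difference between the models 0 to 1 (1 without the same library). Members with an unadjusted p under 0.05 numbered 0 to 1 in 189N3, where App without 189N3 replicate 0 was the 1, and 0 to 4 in Dp(16)1Yey/+. Of all loci, 587 of 35885 were under 0.05 in that 189N3 fit. Without Dp(16)1Yey replicate 0, which gave the 4, it was 4567 of 36100. Isoforms of the members numbered 1 to 2 and 0 to 4. The cause of these changes was not tested.

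Replicate numbers did not pair the samples: deviations of same-numbered libraries correlated between −0.45 and −0.03. Across numbers, Dp(16)1Yey replicate 0 correlated at 0.41 and 0.46 with wild-type replicates 2 and 3, and at −0.47 with replicate 1. Dp(16)1Yey replicate 2 correlated at 0.46 and 0.45 with wild-type replicates 0 and 1, and at −0.45 with replicate 3. In 189N3, differently numbered libraries ran from −0.21 to 0.38. Whether transgenic and wild-type libraries share a batch or litter was not tested, and the main tests are unpaired. With the replicate block, 72 loci passed in 189N3 and 0 in Dp(16)1Yey/+, and 0 members had an unadjusted p under 0.05 in either. With each wild-type pair of the Dp(16)1Yey line averaged, 265 of 36024 loci had an unadjusted p under 0.05 in limma. It was 1273 with these libraries kept apart.

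App in Dp(16)1Yey/+ ranged from −0.48 to 0.21 with 1 library left out, positive only without Dp(16)1Yey replicate 1, and was at 0.066 less the mean of the 7 members outside the segment and 0.12 less Aplp2. Bace2 ranged from −0.017 to 0.54. Over single genes and settings, 750 log2 fold changes kept their direction and side of the threshold and 38 turned direction. In 189N3, quantile normalization put Aplp1 and Psenen at −0.011 and Adam10 at −0.0021, Sorcs3 was at 0.022 with median-ratio size factors, 0.012 in edgeR and 0.084 in DESeq2, and Mrpl39 was at 0.014 in DESeq2.

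With 1 library left out, the values of 189N3 ran from −0.17 to 0.37 for Aplp1, −0.18 to 0.25 for Psenen, −0.011 to 0.33 for Cyyr1, −0.0061 to 0.47 for Dscam, −0.19 to 0.35 for Sorcs2, −0.49 to 0.35 for Sorcs3, −0.061 to 0.21 for Adam10, −0.27 to 0.012 for Adam17, −0.27 to 0.095 for Atp5j, −0.33 to 0.18 for Mrpl39 and −0.39 to 0.12 for Gm10791. In Dp(16)1Yey/+ they ran from −0.14 to 0.10 for Psenen, −0.057 to 0.47 for Dscam, −0.20 to 0.028 for Adam9, −0.12 to 0.061 for Adam10 and −0.030 to 0.13 for Adam17. A minimum mean of 100 left no value for Bace2, Psen2 and Cyyr1. Few fragments limit Bace2 and Mx1, and the spread between libraries limits the other genes.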
